A study of Homo sapiens with 2 samples.

Results

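Epidermal differentiation and cornified envelope genes were examined on 2 arrays, 1 hybridised with RNA of SAS cells and 1 with RNA of eSAS cells. The members were all non-control probes whose gene name on the array begins with SPRR, LCE or S100A, or is IVL, LOR, FLG, RPTN, TCHH, CRNN, HRNR, CNFN, TGM1, TGM3 or TGM5. The rule reads only names. It gave 58 probes of 50 genes, out of 41000 probes under 30484 names. TCHH and HRNR had 0 probes under these names. SAS is a human squamous carcinoma line established from a tongue tumor and grown in DMEM with serum. The eSAS population was derived from it by 5 rounds of selection for large spheroids on a removable filter. The methods also describe growing lines from single cells, and whether the eSAS cells on the array came from 1 cell is not clear from them. The RNA came from log-phase cultures. The question was whether the transcript profile of the selected cells differs from that of the parental cells. With 1 array per population there was no replicate and no test was possible, so no p-value is given and the number of arrays limits the precision.

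Stratified squamous epithelia seal their surface by replacing the plasma membrane of dying keratinocytes with the cornified envelope. Transglutaminases cross-link involucrin (IVL), loricrin (LOR), small proline-rich proteins (SPRR) and late cornified envelope proteins (LCE) into this shell. Filaggrin (FLG), a fused-type S100 protein, bundles keratin filaments beneath it. Most of these genes lie with the S100A calcium-binding protein genes in a cluster on chromosome 1, the epidermal differentiation complex. In tongue and other oral mucosa, which keratinise to different degrees, the envelope genes are typically switched on as cells leave the basal layer.

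The promoters of 4 members are shown because, among members with a probe well above background on both arrays, their signals differed most: FLG and SPRR1B were higher in eSAS cells, and S100A4 and S100A10 were lower. Each run is the 250 bases before the RefSeq start in GRCh38.p14, read 5′ to 3′ on the strand of the gene. Capitals mark TGANTCA, with any base at N. This is a looser form of the site of AP-1, a Jun and Fos factor long tied to keratinocyte differentiation. The usual AP-1 site has C or G at N. The FLG window is chr1:152325240-152325489 on the minus strand, that of SPRR1B is chr1:153030953-153031202 on the plus strand, that of S100A4 is chr1:153545807-153546056 on the minus strand, and that of S100A10 is chr1:151993860-151994109 on the minus strand.
FLG: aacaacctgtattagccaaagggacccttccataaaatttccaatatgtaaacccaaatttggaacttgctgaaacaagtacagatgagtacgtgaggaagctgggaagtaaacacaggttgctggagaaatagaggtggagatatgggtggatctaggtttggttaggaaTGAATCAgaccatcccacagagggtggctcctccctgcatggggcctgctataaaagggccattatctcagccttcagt
SPRR1B: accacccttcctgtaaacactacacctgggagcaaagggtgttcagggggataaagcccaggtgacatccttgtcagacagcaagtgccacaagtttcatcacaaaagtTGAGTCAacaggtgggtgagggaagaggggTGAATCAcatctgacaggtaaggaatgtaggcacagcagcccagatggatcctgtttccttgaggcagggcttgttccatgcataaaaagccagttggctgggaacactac
S100A4: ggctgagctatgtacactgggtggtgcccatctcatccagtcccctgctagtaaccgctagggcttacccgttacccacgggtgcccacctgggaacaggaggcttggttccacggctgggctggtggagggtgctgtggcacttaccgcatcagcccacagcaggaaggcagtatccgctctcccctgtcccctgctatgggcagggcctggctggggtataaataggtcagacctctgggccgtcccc
S100A10: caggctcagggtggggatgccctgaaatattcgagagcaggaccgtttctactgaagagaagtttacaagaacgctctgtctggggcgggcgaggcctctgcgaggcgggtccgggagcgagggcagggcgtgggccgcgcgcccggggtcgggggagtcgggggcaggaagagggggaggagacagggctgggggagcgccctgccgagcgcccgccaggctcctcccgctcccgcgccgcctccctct
In FLG the match begins 79 bases before the start and reads TGAATCA, with A at N. In SPRR1B there are 2 matches, TGAGTCA and TGAATCA, beginning 141 and 111 bases before the start. The S100A4 and S100A10 windows hold none, which says only that these letters are not in these windows. Matches also lie in the windows of IVL, LOR, RPTN, CRNN, SPRR1A, SPRR2G, SPRR3, S100A3, S100A5 and S100A12. The S100A3 match, TGAGTCA, begins 225 bases before the start of a gene 1.48-fold lower in eSAS cells. A link between the motif and the direction of a difference was not tested. The motif reads the same on both strands apart from its middle base. It occurred in 12 of 46 members with a promoter entry (26.1%) and in 2308 of 35116 promoters of the same length (6.57%). Each member counts with 1 window, that at the lowest coordinate if several were listed. The 35116 are all entries, so the 2 shares are not strictly alike. A TATAAA box on either strand occurred in 23 of the 46 members and in 3763 of the 35116 promoters. FLG and S100A4 have such a box and SPRR1B and S100A10 do not. A match is a description of the sequence and not evidence that a factor binds.

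The values are the processed signal of the scanner software, an intensity in which background and spatial trends had been removed within each array. To compare the arrays, the 75th percentile of the log2 signals was subtracted on each (linear values 1242 for SAS and 1196 for eSAS). Single signals are followed by ± the software's own error, which grows with the signal. Spots of the same probe gave log2 ratios between the arrays with an SD of 0.183 at signals under 100 (22 probes), 0.0751 from 100 to 1000 (53 probes), 0.0415 from 1000 to 10000 (96 probes) and 0.0446 above that (41 probes). These errors are technical and leave out the variation between cultures. A probe that failed the software's mark for being well above background on 1 of the arrays has only a bound there. Its fold was taken from its signal or, if greater, from the dimmest signal that carried the mark (12.8 for SAS, 15.2 for eSAS), and is written as at least N-fold. All 10 squamous and epithelial marker genes examined, among them KRT5, TP63 and EPCAM, were well above background on both arrays. Of 11 markers of other cell types, 6, among them PTPRC, PECAM1 and DCN, were well above background on neither. The other 5 had a probe with the mark. CD68 (717 in SAS cells and 752 in eSAS cells) and a probe of VWF (86.0 and 77.1) had it on both arrays. COL1A1, DES and a probe of TYR had it only on the SAS array, at 15.2, 29.0 and 17.1. Of the 12 squamous and epithelial marker probes, 5 were at least 1.5-fold lower in eSAS cells (6.12% of all probes detected on either array) and 0 at least 1.5-fold higher (4.43%). They included both KRT14 probes, 95.4-fold and 2.35-fold lower, and KRT5 at 1.55-fold. The part of this shift in the results below was not tested. In bulk RNA, fewer cells making a transcript and less of it per cell cannot be told apart.

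Of the 58 member probes, 36 were well above background on either array, 33 of them on both, 1 (IVL) only on the SAS array and 2 (FLG and S100A8) only on the eSAS array. These probes stand for 32 genes, and the other 18 genes were not well above background on either array. Of the 41000 probes of the whole array, 28439 were well above background on either array and 26659 on both. At least 2-fold higher in eSAS cells were 3 of the 36 probes, against 1.83% of the 28439 probes detected in this way over the whole array, and all 3 belong to FLG. At least 2-fold lower were 0 of the 36, against 1.97% of all probes. At the milder limit of 1.5-fold, 5 member probes were higher (background 4.43%) and 2 were lower (background 6.12%). Counted by genes, 3 genes were thus higher (FLG, SPRR1B and S100A8) and 2 lower (S100A4 and S100A10). The background shares are over probes and were not worked out for genes. By probes, the count lower is near its background share. Of the 5 probes higher, that of S100A8 and 1 of FLG passed the filter only through the eSAS array. Requiring the mark on each array left 3 higher at 1.5-fold. Of the 29 among the 36 probes that reached 1.5-fold in neither direction, IVL has only a bound, and the others lay within 1.5-fold.

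**Figure D1:**
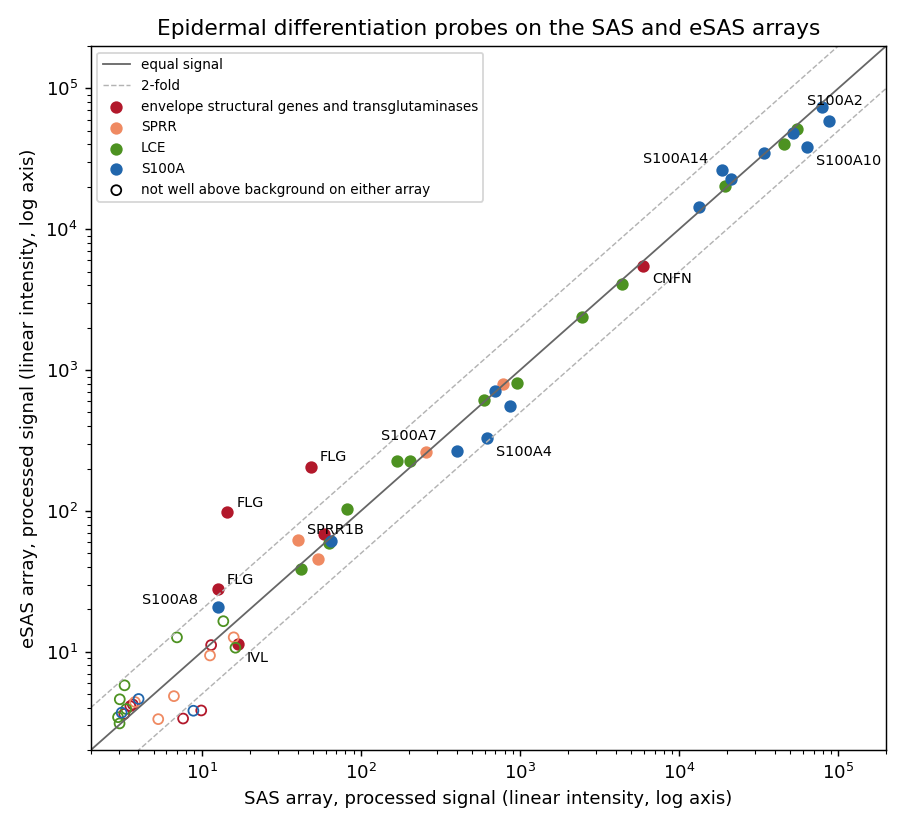
Processed signal of each member probe on the SAS array (horizontal, log axis) and the eSAS array (vertical, log axis), unscaled, coloured by gene group, with open circles for probes not well above background on either array. The 3 FLG probes lie above the 2-fold line, S100A4 and S100A10 lie below the line of equal signal but within 2-fold, and most other filled points follow the line of equal signal.

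Filaggrin was the member that differed most. FLG encodes a large precursor that is cut into filaggrin units in the upper epidermis. Its 3 probes lie on chromosome 1 of hg18 at 150541483 to 150541542 (A_32_P387648), 150546089 to 150546147 (A_24_P51322) and 150553756 to 150553815 (A_24_P34199), so that they cover separate stretches of the gene, and they sit in rows 373, 195 and 439 of the array. The A_24_P34199 signal was 48.6 ± 5.75 in SAS cells and 206 ± 20.9 in eSAS cells, 4.41-fold higher in the latter (log2 ratio 2.14 ± 0.225). The A_32_P387648 signal was 14.5 ± 3.15 in SAS cells and 97.7 ± 10.3 in eSAS cells, 7.01-fold higher (2.81 ± 0.35). The A_24_P51322 signal was 12.6 ± 2.99 in SAS cells, a spot without the mark, and 27.8 ± 4.24 in eSAS cells, at least 2.25-fold higher. All 3 probes were thus low on the SAS array and higher on the eSAS array, at distant spots of the slide. For A_24_P34199 and A_32_P387648 the differences exceed the spread of replicate spots of like brightness. That spread was measured on spots well above background on both arrays and does not cover A_24_P51322, whose software error was 0.41 on the log2 scale. A_24_P51322 was counted only through its eSAS signal, so its direction adds no support. The software marked none of these spots as uneven. The 8 nearest spots around each probe had median log2 ratios of -0.012, 0.040 and 0.098, taken over those well above background on both arrays (for A_32_P387648, A_24_P51322 and A_24_P34199). The size of the difference rests on how a dim background is removed: from uncorrected mean pixels the log2 ratios were 1.46, 1.35 and at least 0.45, so that A_24_P51322 no longer reached 2-fold.

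The other structural proteins of the envelope did not show a like difference. Involucrin, an early scaffold of the envelope, had an IVL signal of 16.9 ± 3.53 in SAS cells and 11.4 ± 3.82 in eSAS cells, where it was not well above background, and was at least 1.07-fold lower. Loricrin, the main envelope protein of cornified skin, had LOR signals of 11.5 and 3.69 in SAS cells and 11.2 and 4.23 in eSAS cells, with neither probe well above background. CNFN (cornifelin), an envelope component, was bright on both arrays, with 5907 ± 591 in SAS cells and 5439 ± 544 in eSAS cells, 1.05-fold lower in the latter. RPTN (repetin) and CRNN (cornulin), which like filaggrin are fused-type S100 proteins, were not well above background on either array. One probe listed under a transcript name and described as trichohyalin, outside the rule for members and named after its values were seen, had 25.4 in SAS cells and 13.2 in eSAS cells, where it was not well above background.

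The transglutaminases among the members were dim or not well above background. TGM1, the membrane-bound keratinocyte transglutaminase, had a signal of 58.8 ± 6.63 in SAS cells and 68.5 ± 7.74 in eSAS cells. Its log2 ratio of 0.28 ± 0.23 is 1.21-fold and compares with a replicate-spot SD of 0.183 at this brightness. TGM3 and TGM5, the other epidermal transglutaminases among the members, were not well above background on either array. TGM2, the widely expressed tissue transglutaminase, is no member and was named after its values were seen. Its probes had 3992 and 3225 in SAS cells and 5381 and 4650 in eSAS cells, log2 ratios of 0.49 and 0.58, both under the 1.5-fold limit.

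**Figure D2:**
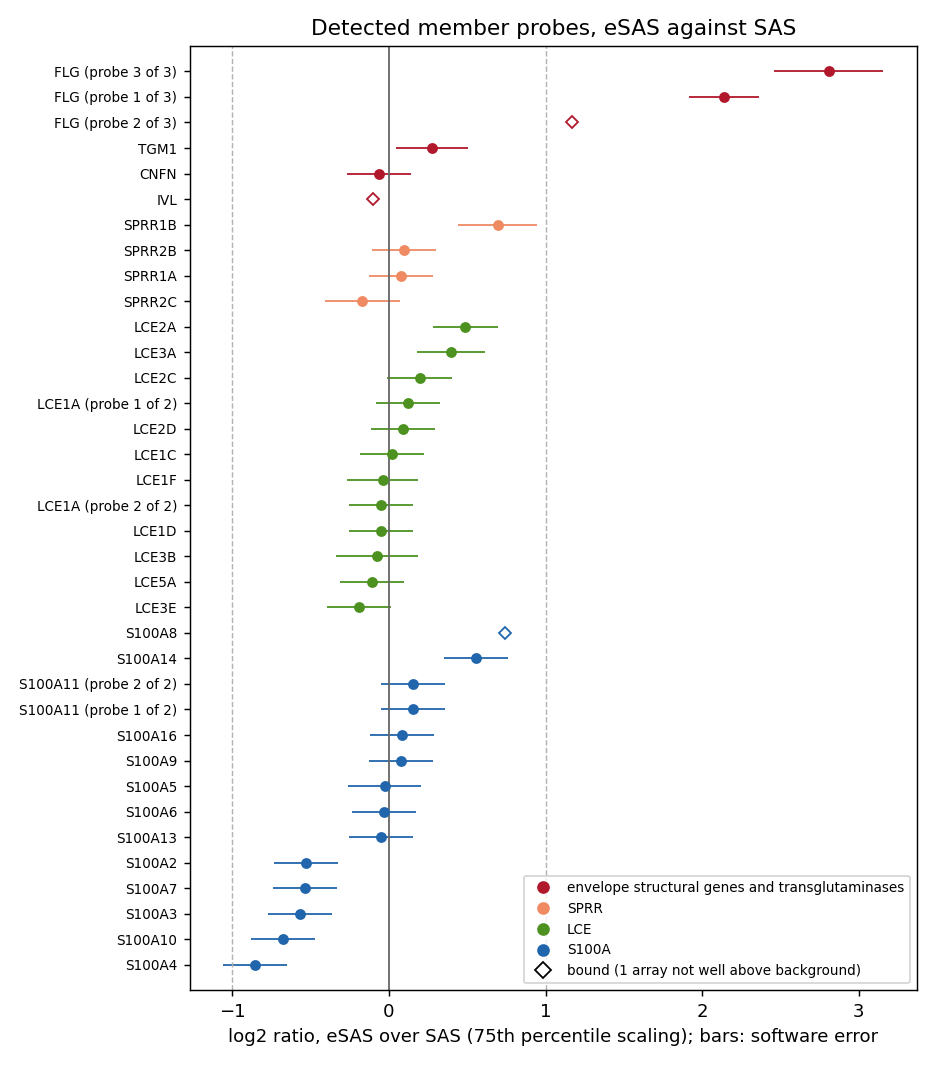
The log2 ratio of eSAS to SAS for each of the 36 member probes well above background on at least 1 array, grouped by gene group. Bars are the error from the software's error model, open diamonds are bounds, and dashed lines mark 2-fold. FLG stands to the right of the 2-fold line with all 3 probes, and 5 S100A probes lie left of the others, between -0.86 and -0.53.

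Small proline-rich proteins bridge other envelope proteins. Of 9 SPRR probes for 8 genes, 4 were well above background on both arrays and 5 on neither. SPRR1B (cornifin) had a signal of 40.1 ± 5.14 in SAS cells and 62.4 ± 7.28 in eSAS cells, 1.62-fold higher in eSAS cells, with a log2 ratio of 0.69 ± 0.25. This was the highest ratio of the group, on a dim probe, and without background correction it was 0.40, under the 1.5-fold limit. SPRR1A, the closest relative of SPRR1B, had 786 ± 78.7 and 798 ± 79.9 at one probe (log2 ratio 0.076) and was not well above background on either array at its other probe. The SPRR2B probe, at 256 and 263 with a log2 ratio of 0.096, lists RefSeq transcripts of SPRR2A, SPRR2B, SPRR2E and SPRR2F, so these genes cannot be separated by it. SPRR2C had 53.6 and 45.8, a log2 ratio of -0.17. SPRR2D, SPRR2G, SPRR3 and SPRR4 were not well above background on either array. SPRR3 is a gene of oral and oesophageal rather than skin epithelium, and its signals were 15.9 and 12.7.

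Late cornified envelope proteins are added when the envelope matures. Of 20 LCE probes for 17 genes, 12 probes of 11 genes were well above background on both arrays and the other 8 on neither, so that detection was the same on the 2 arrays. Of the 12 probes, 0 were at least 1.5-fold higher (4.43% of all probes) and 0 at least 1.5-fold lower (6.12%). With so few probes, these counts are near the background shares. The log2 ratios ranged from -0.19 (LCE3E, 959 in SAS cells and 810 in eSAS cells) to 0.49 (LCE2A, 168 and 227), with a median of -0.0099 over the 12 probes. Several LCE probes were bright in both populations. LCE1D had 54898 ± 5490 and 51116 ± 5112, LCE5A had 45338 ± 4534 and 40441 ± 4044, and the probes of LCE1A had 19505 and 4374 in SAS cells and 20400 and 4073 in eSAS cells. These log2 ratios were smaller than the software's error of 0.204 on each. LCE1B, LCE1E, LCE2B, LCE3C, LCE3D and LCE4A were not well above background on either array, and neither was a second probe of LCE2C, although its first had 205 and 226. The brighter LCE1A probe lists 0 RefSeq transcripts and has its name from the array alone. The LCE1C probe (2447 and 2389) also lists a transcript of LCE1F, and that of LCE2D (594 and 610) one of LCE2C. Within this family of near-identical genes, a signal cannot be assigned to 1 gene with certainty. Whether transcripts from outside the family add to the bright LCE signals was not tested. LCE1F (63.2 and 59.2) and LCE3B (42.2 and 38.6) had ratios smaller than the spread of dim replicate spots, and LCE3A (81.7 and 104) had a log2 ratio of 0.40.

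The S100A genes encode small EF-hand calcium sensors, some of them made by all epithelia and some induced in inflamed or differentiating epidermis. Over the 13 S100A probes well above background on both arrays, log2 ratios ranged from -0.86 to 0.55, with 8 below 0 and 5 above. S100A4, a partner of non-muscle myosin studied in cell migration and metastasis, had a signal of 622 ± 62.3 in SAS cells and 331 ± 33.3 in eSAS cells, 1.81-fold lower in eSAS cells (log2 ratio -0.86 ± 0.20). S100A10, the partner of annexin A2 at the cell surface, had 63565 ± 6357 and 38333 ± 3833, 1.60-fold lower (-0.68 ± 0.20). Both are larger than the spread of replicate spots of like brightness. Around the S100A10 spot, the 6 measurable of the 8 nearest spots had a median log2 ratio of -0.61, while 34 of the 48 nearest had -0.012, and the part of the nearest spots in the S100A10 value was not tested. Around S100A4 the values were -0.18 (4 spots) and -0.036 (32 spots).

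Just under the 1.5-fold limit were 3 further S100A genes that were lower in eSAS cells. S100A3, a cysteine-rich protein of the hair cuticle, had 860 ± 86.0 and 559 ± 56.0, 1.48-fold lower. S100A7 (psoriasin), induced in inflamed and squamous neoplastic epidermis, had 402 ± 40.3 and 267 ± 26.9, 1.45-fold lower. S100A2, a gene of basal keratinocytes, had 87364 ± 8736 and 58373 ± 5837, 1.44-fold lower. The nearest measurable spots had median log2 ratios of -0.48 around S100A3 (3 spots), -0.10 around S100A7 (4 spots) and 0.040 around S100A2 (4 spots). With no scaling between the arrays, the number of member probes at least 1.5-fold lower was 4 rather than 2. In the opposite direction, S100A14 had 18601 ± 1860 in SAS cells and 26314 ± 2631 in eSAS cells, 1.47-fold higher, with a median log2 ratio of 0.30 over 4 spots around it. S100A8, which pairs with S100A9 as calprotectin in stressed epithelium and neutrophils, had 12.6 ± 2.99 in SAS cells, again without the mark, and 20.7 ± 3.80 in eSAS cells, at least 1.67-fold higher. Its partner S100A9 had 701 ± 70.1 and 711 ± 71.2, a log2 ratio of 0.075, and the difference between the partners was not tested. Both S100A8 signals were near the lowest detectable, and without background correction the S100A8 bound was 0.28 on the log2 scale.

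The other S100A probes with signals above background gave log2 ratios between -0.050 and 0.15. S100A6 (calcyclin) had 78786 ± 7879 and 74150 ± 7415. S100A13 had 51770 ± 5177 and 48141 ± 4814. S100A16 had 34175 ± 3418 and 34922 ± 3492. The probes of S100A11, which is itself a substrate of transglutaminase in the envelope, gave log2 ratios of 0.15 and 0.15 from 21182 and 13402 in SAS cells. S100A5 was dim in both, at 64.6 and 61.1. S100A1, S100A7A and S100A12 were not well above background on either array.

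The members on chromosome 1 span 150222044 to 151870959 of hg18, or 1649 kb. The 5 genes S100A6, S100A5, S100A4, S100A3 and S100A2 follow each other, with probe starts at 151773879, 151779212, 151782822, 151786622 and 151800490. Their log2 ratios in this order were -0.033, -0.027, -0.86, -0.57 and -0.53, so that the lower values lay on 3 adjacent genes and the first 2 genes of the run had near-equal signals. S100A16, S100A14 and S100A13, farther along, had 0.086, 0.55 and -0.050. The member probes on either side of FLG, those of RPTN and CRNN, were not well above background. Among 15 other probes of the interval, 5 were well above background on both arrays. Of these, both probes of CRCT1, a cysteine-rich gene of the same cluster expressed in oesophageal epithelium and named after its values were seen, were higher in eSAS cells. Their signals were 354 and 1695 in SAS cells and 616 and 3227 in eSAS cells, with log2 ratios of 0.85 and 0.98. The CRCT1 probes lie 532.6 and 533.0 kb from the S100A10 probe, and the nearest detected LCE probe, LCE5A, had -0.11.

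**Figure D3:**
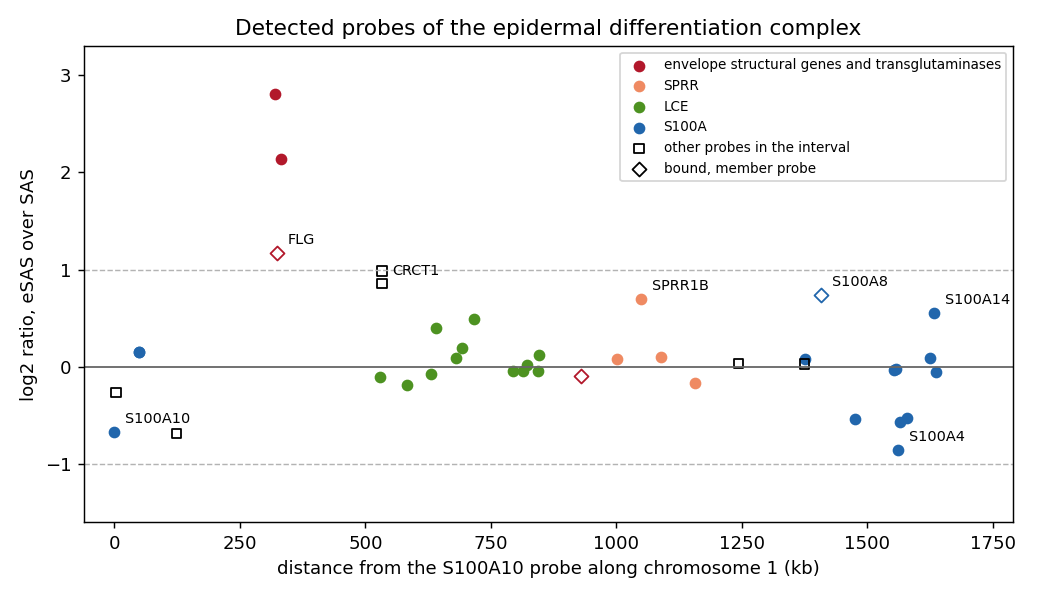
The log2 ratio of eSAS to SAS for detected probes of the epidermal differentiation complex against their distance along chromosome 1 from the S100A10 probe, in kb, with member bounds as open diamonds and other probes of the interval as open squares. FLG stands highest at 319.4 to 331.7 kb, CRCT1 is higher in eSAS cells at 532.6 and 533.0 kb, the LCE genes lie between -0.19 and 0.49, and S100A2, S100A3 and S100A4 lie together below 0.

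Genes that work with the envelope were examined as a list of 37, of which 36 were on the array. Of these 36 genes, 29 had a probe well above background on at least 1 array. Of 34 such probes, 2 were at least 2-fold higher in eSAS cells (1.83% of all probes) and 0 at least 2-fold lower (1.97%), and at 1.5-fold 5 were higher (4.43%) and 0 lower (6.12%). The median log2 ratio was 0.022 over 28 genes, against -0.0012 over all 19476 genes, so the list as a whole stayed near the middle of the array. The 2 probes past 2-fold were those of SERPINB3 and SERPINB4, the squamous cell carcinoma antigens, which are neighbouring and closely similar protease inhibitors of differentiating squamous epithelium. SERPINB3 had a signal of 36.7 in SAS cells and 174 in eSAS cells, 4.93-fold higher. SERPINB4 had 37.7 and 140, 3.85-fold higher, and cross-hybridisation between these probes was not tested. Past 1.5-fold were also both probes of SERPINB2, a plasminogen activator inhibitor linked to the cornified envelope, at 1.79-fold and 1.95-fold, and 1 of 2 probes of the tight junction gene CLDN1 at 1.58-fold. Envelope scaffolds of the desmosomal plaque were near equal, with EVPL (envoplakin) at 2652 and 2675 and PPL (periplakin) at 1634 and 1549. KRT1 and KRT2, suprabasal keratins of cornifying skin, DSG1, DSC1, CALML5, CASP14 and KRTDAP were not well above background on either array. The keratin KRT10 was bright on both, at 17696 in SAS cells and 16194 in eSAS cells, 1.05-fold lower. DMKN (17368 and 18494) and SCEL (4032 and 5349) were also bright. KRT4, KRT13, SPINK5 and a probe of CDSN were dim but well above background on both arrays. The higher FLG signal of eSAS cells was thus measured with KRT10 bright. LOR, KRT1 and CASP14, a protease that processes filaggrin, were not well above background.

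**Figure D4:**
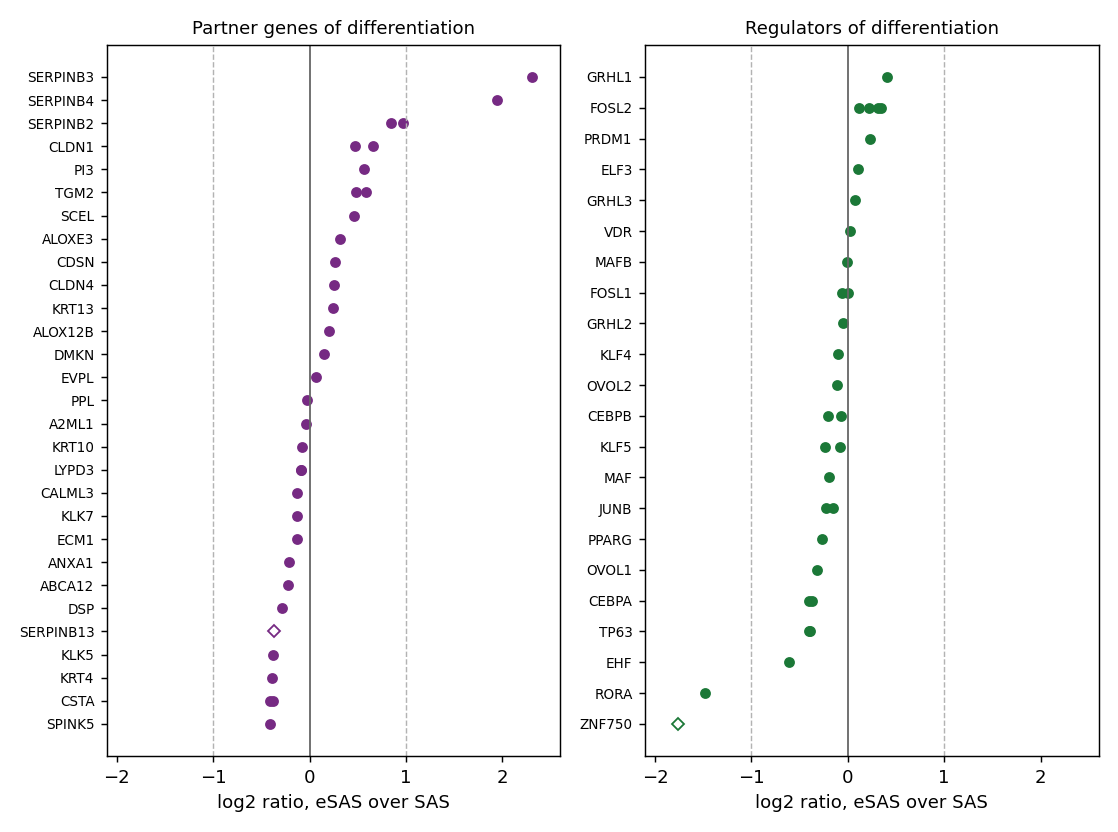
The log2 ratio of eSAS to SAS for each detected probe of the partner genes (left) and the regulator genes (right), 1 row per gene, leaving out 1 regulator that is not reported singly, with open diamonds for bounds and dashed lines at 2-fold. SERPINB3 and SERPINB4 lie beyond 2-fold on the higher side, and RORA and ZNF750 beyond 2-fold on the lower side.

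Regulators of squamous differentiation were examined as a list of 24 genes, of which 23 had a probe well above background on at least 1 array. Of 32 such probes, 0 were at least 1.5-fold higher in eSAS cells (4.43% of all probes), 3 were at least 1.5-fold lower (6.12%) and 2 of these at least 2-fold lower (1.97%). The median log2 ratio was -0.11 over 22 genes. ZNF750, a zinc finger factor that promotes terminal differentiation downstream of p63, had a signal of 53.5 in SAS cells and 12.5 in eSAS cells, where it was not well above background, and was at least 3.39-fold lower. RORA, a nuclear receptor, had 102 and 35.4, 2.78-fold lower. EHF, an epithelial ETS factor, had 1322 and 833, 1.53-fold lower. TP63, the lineage factor of squamous epithelium, had log2 ratios of -0.40 and -0.40 at its probes. KLF4 and GRHL3, which also act in differentiation, had -0.10 and 0.076. The AP-1 genes on the list stayed within 1.5-fold, with FOSL1 at 0.0018 and -0.058, JUNB at -0.23 and -0.16, and FOSL2 between 0.11 and 0.34. The direction of RORA, well above background on both arrays, was thus opposite to that of FLG, and it rests on a single probe. ZNF750 also rests on a single probe. It was counted only through its SAS signal, so its direction adds no support.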

How the data were processed

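Cy3-labelled RNA of SAS and eSAS cells was hybridised to 2 Agilent whole human genome arrays. Per the file headers, the intensity values that the authors deposited were background-subtracted and spatially detrended within each array, and not scaled between arrays, by Agilent Feature Extraction (version 10.7.3.1 in the submitters' processing notes). The deposited table of the whole series equalled the processed signal at all 45015 spots (relative tolerance 1e-06). Probe positions are in hg18.

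Here, log2 signals were centred on each array's 75th percentile over non-control spots, replicate spots were averaged, and spots that the software marked as uneven or as outliers were dropped (0 member spots). Detection required over 50 percent of a probe's spots well above background. Saturated spots numbered 0. List genes were named through RefSeq accessions (GRCh38.p14), which matched 23958 of 41000 probes, and otherwise by symbol. Members with a fold or bound of at least 1.5 and the brightest members are given in full, as are list genes past 2-fold; other members' signals, KRT14, KRT5, CRCT1, trichohyalin and list genes under 2-fold were named after their values were seen. Members and lists were chosen with earlier results of these data known. One regulator gene is counted in its list but not reported singly here. Counting was tested on simulated data. Alternatives covered scaling, background, filters and probe choice. R 4.3.3 with limma 3.58.1 (normexp, quantile) and Python 3.11.15 were used.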

Additional observations from a re-analysis of the deposited data

How the results depend on the processing

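With centring on the median, the 75th percentile over detected probes, quantile normalization, the authors' series table and without rows 459 to 510 of the array, which hold most marked spots, the 6 member counts stayed within 1.5 times, and the 6 group medians (relative to all genes) and the 5 genes past 1.5-fold shifted by no more than the SD of replicate spots, 0.0752. Keeping marked spots moved no count beyond 1.5 times, and the brightest probe of each gene moved no median by more than that SD. With no scaling, 4 member probes were at least 1.5-fold lower. Counting genes gave 1 at least 2-fold and 3 at least 1.5-fold higher. Only with probes detected on both arrays, 3 were higher at 1.5-fold. With no background correction 2 were at least 1.5-fold higher and the envelope median was 0.17 against 0.28. That median covers only 3 genes, FLG, TGM1 and CNFN, and its 0.28 is the TGM1 value. The SPRR median covers 4 genes, that of LCE 11 and that of S100A 12. With no filter or lower limit, 3 were lower at 2-fold, 8 higher and 6 lower at 1.5-fold, and the medians were -0.24 for SPRR and 0.078 for envelope genes.

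With normexp on mean pixels, 14 probes were higher at 2-fold and 15 at 1.5-fold, and 2 and 5 were lower. The medians were -0.89 for S100A, 1.14 for SPRR, 1.71 for envelope, -0.29 for LCE, -0.11 for partner and -0.58 for regulator genes, and S100A4 had the opposite sign at 0.10. With median pixels these were 14, 15, 2 and 6 probes, medians of -0.87, 1.14, 1.67, -0.31, -0.12 and -0.59, and 0.14 for S100A4. The median of all genes was then 0.68, and relative to it S100A4 stayed below 0, at -0.58 with mean and -0.55 with median pixels. The group medians above are relative to it, while the probe counts are not. With mean pixels S100A8 was at 2.97, SPRR1B at 2.64 and S100A10 at -1.27. Fitted without spots whose local background was marked, a setting chosen after seeing the data, that median was -0.0071, S100A4 was -0.76, 2 probes were at least 1.5-fold higher and the envelope median was 0.13. The FLG probes were then at 1.31, 1.07 and 0.23, and S100A8 (0.029) and SPRR1B (0.32) were no longer at 1.5-fold. What causes these shifts was not tested. No paired analysis was possible because each population has 1 array, and for that reason a slide block was not fitted. Signal over background limits FLG, S100A8, SPRR1B, IVL and LCE3B, whose SAS signals were under 50. Among list genes past 2-fold, it also limits SERPINB3 and SERPINB4, at 36.7 and 37.7 in SAS cells. The same holds for ZNF750 and RORA, at 12.5 and 35.4 in eSAS cells. For these list genes, single values under other background settings are not given.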
